A study of Saccharomyces cerevisiae with 116 samples.

Results

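HH5 is a euploid mutation accumulation line of diploid budding yeast (Saccharomyces cerevisiae), and its transcript levels were set against those of 8 other euploid lines of the same experiment. The members are the 3 libraries whose titles name line HH5, 1 per colony, out of 116 libraries in the series. The others are the 24 libraries of HH1, HH2, HH3, HH4, HH7, HH8, HH11 and HH28, also 3 colonies each, chosen because the labels call them euploid and their library names carry the same SC prefix. The 3 libraries of the unevolved HH ancestor in its first run, which carries that prefix too, served as a second reference. All 9 lines descend from that ancestor, a homozygous diploid of S288C descent with the auxotrophic alleles ura 3-52, leu2-3.112, his3-delta-D200, lys2-801 and ade2, and with ho, all of which the 9 lines carry too. In a mutation accumulation experiment, lines start from 1 ancestor and are restreaked from a single colony each time, which weakens selection and lets new mutations stay. Each line here went through 100 single-colony transfers, 1 every 48 hours, for 2063 generations. For the measurement, per the labels' protocols, 3 colonies of a line were each grown in liquid rich glucose medium for 24 hours and, after dilution, for 6 hours at 30 °C. HH5 is 1 line, so a value of HH5 against the others describes this line and its colonies and not a class of lines.

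Yeast in rich glucose medium ferments, divides fast and keeps large groups of genes off. Genes for the use of acetate, glycerol and fatty acids are repressed while glucose lasts, and genes for the uptake of poor nitrogen sources are repressed while good ones last, the second being called nitrogen catabolite repression. Another group is tied to cell division itself: after mitosis, enzymes such as the chitinase Cts1 are made that cut the wall between mother and daughter, many of them in the daughter cell alone. Genes for copying DNA are switched on at the start of S phase by the factor MBF, which binds the sequence ACGCGT. The programs appear in turn as a culture uses up its glucose or as its cells pass through the cycle.

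The short sequences that the factors of these programs are known to read lie upstream of several genes described here, and are shown so that the letters can be read beside the levels of those genes. They were searched on both strands within 500 bases before the start codon, leaving out the nearest 100, in the R64 genome (RefSeq), the assembly also called sacCer3. The stretches run 5′ to 3′ on the strand of the gene, and capitals mark each match.
GCTGGT, read by the factor Swi5, is shown for 3 daughter-specific genes.
DSE1, chrV:409296-409524, minus strand: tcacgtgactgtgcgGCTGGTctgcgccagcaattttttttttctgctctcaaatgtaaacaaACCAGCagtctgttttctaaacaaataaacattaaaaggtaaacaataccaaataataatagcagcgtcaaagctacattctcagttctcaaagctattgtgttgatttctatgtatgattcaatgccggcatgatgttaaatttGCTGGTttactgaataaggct
DSE2, chrVIII:385074-385268, plus strand: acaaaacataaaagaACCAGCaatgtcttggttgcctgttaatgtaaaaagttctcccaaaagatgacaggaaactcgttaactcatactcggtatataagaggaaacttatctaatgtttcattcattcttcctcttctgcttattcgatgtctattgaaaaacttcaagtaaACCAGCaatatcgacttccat
EGT2, chrXIV:23648-23871, plus strand: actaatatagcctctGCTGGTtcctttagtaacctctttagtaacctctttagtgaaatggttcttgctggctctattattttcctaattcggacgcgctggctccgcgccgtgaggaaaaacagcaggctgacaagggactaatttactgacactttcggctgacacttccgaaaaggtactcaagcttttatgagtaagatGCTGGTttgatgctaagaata
GATAAG, read by the GATA factors of nitrogen control, is shown for 3 genes of that list.
GAP1, chrXI:514579-514841, plus strand: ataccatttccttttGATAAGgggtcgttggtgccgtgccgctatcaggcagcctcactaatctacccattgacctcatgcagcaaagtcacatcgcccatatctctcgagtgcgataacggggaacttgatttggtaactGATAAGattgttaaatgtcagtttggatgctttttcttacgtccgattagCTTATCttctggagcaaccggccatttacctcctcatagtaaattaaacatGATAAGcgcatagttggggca
DUR12, chrII:642514-642704, minus strand: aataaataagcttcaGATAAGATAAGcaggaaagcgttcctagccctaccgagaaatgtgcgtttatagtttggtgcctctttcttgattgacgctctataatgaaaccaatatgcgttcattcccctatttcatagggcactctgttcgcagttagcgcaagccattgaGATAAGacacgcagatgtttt
GAT1, chrVI:95710-95767, plus strand: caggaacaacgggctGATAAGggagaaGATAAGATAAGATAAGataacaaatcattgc
ACGCGT, read by MBF, is shown for 3 replication genes and the cohesin gene PDS5.
POL1, chrXIV:429864-429934, plus strand: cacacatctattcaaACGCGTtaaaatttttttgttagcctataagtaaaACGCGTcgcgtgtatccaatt
POL2, chrXIV:148082-148111, plus strand: ggtagggtaaccagaACGCGTaagtttctt
PDS5, chrXIII:420177-420212, minus strand: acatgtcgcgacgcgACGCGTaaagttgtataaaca
MRC1, chrIII:22207-22265, minus strand: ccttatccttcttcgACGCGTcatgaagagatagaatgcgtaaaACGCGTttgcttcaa
GCTGGT was in 11.1% of 5986 windows of this kind and in 6 of 15 windows of the list of daughter-specific genes. GATAAG was in 18.2% of the windows and in 23 of 28 of the list of nitrogen catabolite repression, a list made up of genes known for that control. ACGCGT was in 4.88% of the windows and in 5 of the 12 genes that stood out most in HH5 colony 2. Those 12 were picked from the levels of that 1 library after they were seen. The shares are descriptions, and no link between a sequence and the levels was tested. Neighbouring GATAAG matches in DUR12 and in GAT1 overlap by 1 base. CTS1 and PUT4, described below, held no such match in this window.

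Libraries of HH5 held 5532082, 6575289 and 5733430 reads in genes, against 4169299 to 9938460 in the 24 other libraries. The levels given are CPM, read counts scaled to a common library size by the TMM method. HIS3, deleted per the label, had no read in any of the 30 libraries. ADE2, LYS2, LEU2, URA3 and HO were read in HH5, and none of them passed the test. A gene was called where its adjusted p was under 0.05 (edgeR quasi-likelihood test, Benjamini-Hochberg). The descriptions of HH2 replicates 2 and 3 name other lines than their titles, which were followed. Without line HH2, 182 genes were called in place of the 324 given next.

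Of 5994 genes tested, 324 differed between HH5 and the mean of the 8 other lines, which is 5.41%. There were 256 genes higher in HH5 (4.27%) and 68 lower (1.13%), and 108 of the 324 also differed at least 2-fold (1.8% of the genes tested). All 3 HH5 colonies lay beyond the means of all 8 other lines in 401 genes (6.69%), above them in 207 (3.45%), and 129 of the 401 were called. The median log2 difference over all genes was 0.00. These p-values measure the spread between colonies within lines. With the 3 colonies of a line summed and the line as the unit, 1 line against 8, edgeR called no gene (432 at an unadjusted p under 0.05). The called genes therefore describe these 3 colonies against the colonies of the other lines, and no gene was shown to differ beyond the spread among lines.

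**Figure D1:**
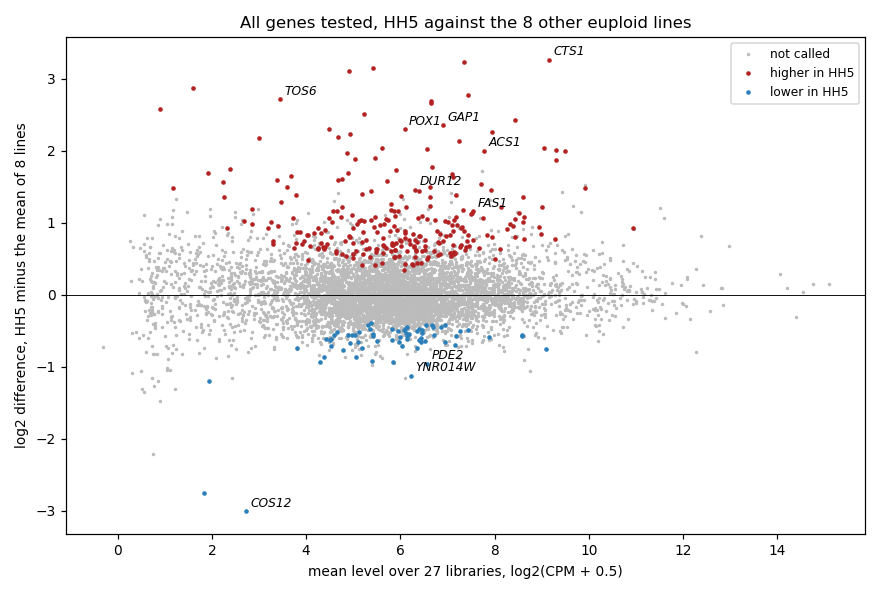
Each point is 1 of 5994 genes, with its mean level over 27 libraries on the horizontal axis (log2 of CPM + 0.5) and the fitted log2 difference, HH5 minus the mean of the 8 other lines, on the vertical axis. The 256 red genes were higher in HH5 and the 68 blue ones lower, and CTS1 is among the genes with the largest positive difference at 3.26.

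The HH5 colonies did not form 1 group. Colonies 1 and 3 deviated from the mean of the 27 libraries in much the same way (r = 0.82 across 5342 genes), while colony 2 had r = −0.02 with colony 1 and r = −0.17 with colony 3. Among the other lines, colony 1 was closest to HH7 colony 3 (r = 0.79) and HH28 colony 3 (r = 0.77), and colony 3 likewise (r = 0.90 and 0.81). The highest value of colony 2 with any library was r = 0.37, with HH2 colony 3. These values describe pairs of libraries, and genes are not independent replicates. The SD between the colonies of HH5, as a median over genes, was 0.27 on the log2 scale, against 0.15 in HH11 to 0.41 in HH1. Of the 256 genes called higher, colony 2 was the lowest of the 3 colonies in 140 and the highest in 93. Levels are therefore given colony by colony for the genes described in full.

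Genes of mother-daughter separation were high in HH5 colonies 1 and 3 and not in colony 2. Of the 15 genes listed, 12 were called higher in HH5 and none lower, with a median log2 difference of 1.73. Without HH5 replicate 1, 2 or 3 the count was 3, 13 and 6, and with limma-voom it was 2. CTS1, the chitinase that cuts the septum (chromosome XII, 708448 to 710136, minus strand), had 2095, 87.3 and 2891 CPM in HH5 colonies 1, 2 and 3, against a lowest of 30.2, a median of 81.1 and a highest of 2813 CPM in the 24 other libraries. Its log2 difference was 3.26 ± 0.54 (SE, edgeR adjusted p = 0.00120). Colonies 1 and 3 thus stood far above the median of the others and colony 2 next to it.

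DSE1, a daughter-specific gene of cell wall turnover (chromosome V, 407342 to 409063, minus strand), had 712, 33.7 and 730.5 CPM in HH5, against a lowest of 9.35, a median of 25.6 and a highest of 725 CPM in the others. The log2 difference was 3.23 ± 0.51 (SE, edgeR adjusted p = 0.00105). DSE2, a secreted glucanase-like protein of the daughter side, had 618, 46.8 and 751 CPM in HH5, against 19.6 to 714 CPM with a median of 36.9 in the others. EGT2, a wall protein of the same program, and SCW11, a glucanase-like wall protein, were likewise high in colonies 1 and 3, with log2 differences of 2.66 and 2.69. EGT2 had 360, 29.0 and 384 CPM in HH5, against 9.65 to 494 CPM in the others.

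High levels of this list were not particular to HH5. The list's median, as log2(CPM + 0.5) minus the mean of the 24 other libraries, was 2.12 in colony 1, −0.29 in colony 2 and 2.53 in colony 3. It exceeded 1 in 5 of the 24 other libraries, HH7 colonies 2 and 3 (2.08 and 2.69) and the 3 colonies of HH28 (1.06, 1.96 and 2.54), and was at most 0.52 in the other 19. In the ancestor CTS1 had 79.7, 63.4 and 70.2 CPM, and the log2 difference of HH5 from it was 4.57 (edgeR adjusted p = 0.0174). SWI5, a factor active at the end of mitosis, had 29.0, 14.4 and 34.5 CPM in HH5, against a median of 8.21 and a highest of 28.9 CPM in the others (log2 1.39 ± 0.31 SE, edgeR adjusted p = 0.0102). SWI5 was chosen after its values were seen.

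**Figure D2:**
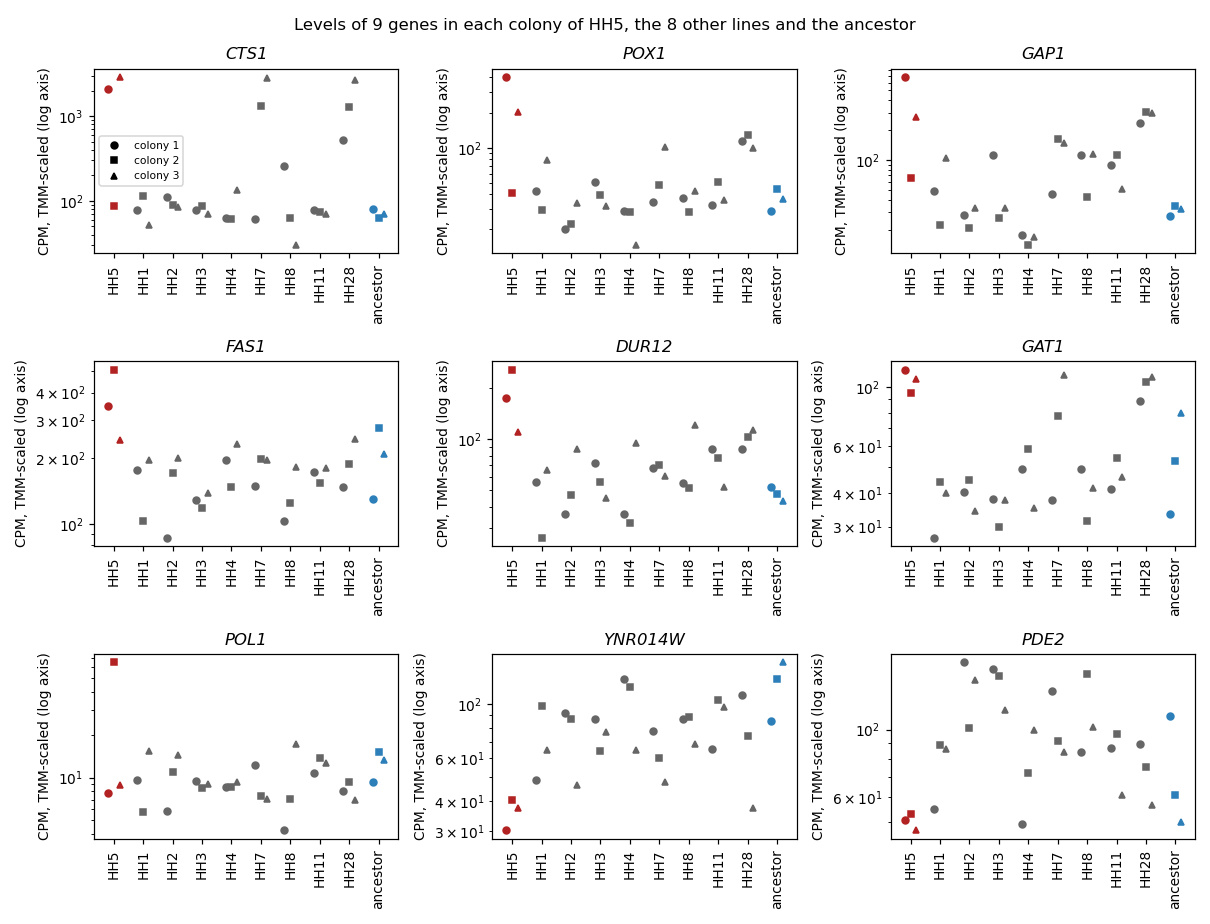
CPM of 9 genes (log axes) in each colony of HH5 (red), of the 8 other lines (grey) and of the ancestor (blue), with the marker showing the colony number. HH5 colonies 1 and 3 are high for CTS1, POX1 and GAP1 and colony 2 is not, all 3 are high for FAS1, DUR12 and GAT1, colony 2 alone is high for POL1, and all 3 are low for YNR014W and PDE2. HH28 is high for GAP1 and GAT1 too.

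Genes for using fatty acids and acetate formed the next group. Of 23 genes of peroxisomal fatty acid oxidation, 14 were called higher in HH5 and none lower, with a median log2 difference of 0.89. POX1, the acyl-CoA oxidase that opens the pathway (chromosome VII, 108158 to 110404, plus strand), had 404, 41.4 and 201 CPM in HH5, against a lowest of 14.8, a median of 36.5 and a highest of 130 CPM in the others. The log2 difference of POX1 was 2.30 ± 0.31 (SE, edgeR adjusted p = 0.000378). Colonies 1 and 3 lay above all 24 other libraries, HH28 being the nearest, and colony 2 lay near the median.

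DCI1, a dienoyl-CoA isomerase of the same pathway, had 51.3, 11.1 and 28.4 CPM in HH5, against 3.92 to 18.8 CPM in the others (log2 1.65). FAA2, which activates medium-chain fatty acids, had 385, 77.8 and 226 CPM in HH5, against 52.6 to 144 CPM in the others (log2 1.496). It overlaps BUD25 in the annotation, and reads of the pair may not be told apart. TES1, a peroxisomal thioesterase, had 199, 97.7 and 128 CPM in HH5, against 48.3 to 127 CPM in the others (log2 0.76). In each of these colony 2 lay within the range of the other libraries.

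LPX1, a peroxisomal lipase, departed from that order. It had 67.3, 77.1 and 36.3 CPM in HH5, against a lowest of 7.81, a median of 17.9 and a highest of 44.5 CPM in the others, and colony 2 was here the highest of the 3. LPX1 was higher in HH5 by 1.59 ± 0.27 on the log2 scale (SE, edgeR adjusted p = 0.00122), and 1 of the 24 other libraries exceeded the lowest HH5 colony.

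Of 21 glucose-repressed genes of carbon metabolism, 12 were called higher and none lower, and all 21 had a positive difference (median log2 1.16). ADY2, an acetate transporter, had 2223, 155 and 967 CPM in HH5, against a lowest of 6.43, a median of 244 and a highest of 587 CPM in the others. Colony 2 was thus below the median of the other libraries for a gene whose fitted log2 difference was 2.42 ± 0.41 (SE, edgeR adjusted p = 0.00130). ACS1, which makes acetyl-CoA from acetate (chromosome I, 42881 to 45022, minus strand), had 1118, 211 and 560 CPM in HH5, against 55.9 to 385 CPM with a median of 145 in the others. The aldehyde dehydrogenase ALD4 had 2718, 487 and 1793 CPM in HH5, against 234 to 1498 CPM in the others (log2 1.88). The mitochondrial citrate synthase CIT3 had 335, 106 and 193 CPM in HH5, against 42.4 to 147 CPM in the others (log2 1.35). ATO3, a putative ammonium exporter, had 284, 14.6 and 85.3 CPM in HH5, against 9.05 to 82.6 CPM with a median of 20.1 in the others (log2 2.51). In CIT3 and ALD4 colony 2 lay within the range of the others, and in ATO3 below their median. By contrast none of 36 genes of the respiratory chain and ATP synthase, none of 15 of the citric acid cycle and none of 21 of glycolysis and ethanol formation was called.

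Summed up by library, the medians of the 2 lists in HH5 colonies 1 and 3 lay above all 24 other libraries. The peroxisomal list stood at 1.53, 0.01 and 0.93 in colonies 1, 2 and 3, against −0.57 to 0.58 in the others. The glucose-repressed list stood at 1.68, 0.40 and 1.12, against −2.40 to 0.90. With HH5 colony 2 left out, 15 and 13 members of the lists were called. With colony 1 left out 3 and 0 were called, and with limma-voom 6 and 4.

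**Figure D3:**
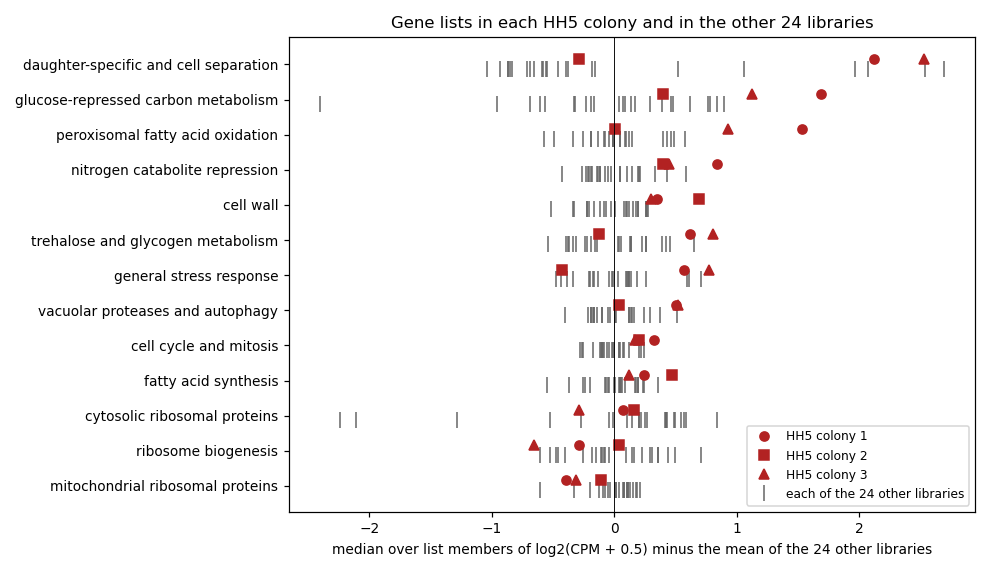
Median over the members of 13 gene lists of log2(CPM + 0.5) minus the mean of the 24 other libraries, for the 3 HH5 colonies (red) and each other library (grey ticks). HH5 colonies 1 and 3 lie far to the right for the first 3 lists and colony 2 does not, while for the cell wall list all 3 HH5 colonies lie above the 24 ticks.

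Genes of nitrogen catabolite repression were higher in HH5 as well. Of 27 tested, 13 were called higher and none lower, with a median log2 difference of 0.51. Without HH5 replicate 1, 2 or 3 the count was 3, 12 and 10. GAP1, the general amino acid permease (chromosome XI, 515063 to 516871, plus strand), had 684, 65.3 and 268 CPM in HH5, against a lowest of 14.01, a median of 49.7 and a highest of 305 CPM in the others. Its log2 difference was 2.35 ± 0.39 (SE, edgeR adjusted p = 0.00122), and 3.44 from the ancestor (edgeR adjusted p = 0.0105), where it had 27.1, 34.2 and 32.4 CPM. In the colonies of HH28 GAP1 had 237, 305 and 298 CPM. PUT4, the proline permease, had 171, 14.9 and 68.0 CPM in HH5, against 3.01 to 55.3 CPM in the others, with colony 2 again below their median of 18.6.

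Other members were high in all 3 colonies. DUR12, the enzyme of urea breakdown also written DUR1,2 (chromosome II, 636703 to 642210, minus strand), had 175, 257 and 110 CPM in HH5, against a lowest of 26.3, a median of 63.3 and a highest of 120 CPM in the others. DUR12 was higher in HH5 by 1.46 ± 0.27 on the log2 scale (SE, edgeR adjusted p = 0.00290), and 1.91 from the ancestor (edgeR adjusted p = 0.0136). GAT1, a GATA activator of these genes (chromosome VI, 95966 to 97498, plus strand), had 116, 94.5 and 107 CPM in HH5, against 27.3 to 110 CPM with a median of 43.0 in the others. The colonies of HH28 were near HH5 for GAT1, at 88.3, 104 and 109 CPM, so this level was not particular to HH5. GLT1, glutamate synthase, had 480, 614 and 459 CPM in HH5, against 192 to 488 CPM in the others (log2 0.92). DUR12 and GLT1 are longer than 3000 bases, a class of genes with a median log2 difference of 0.61 in colony 2. With a trend on gene length taken out, the differences of DUR12 and GLT1 were 1.04 and 0.50.

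OPT2, an oligopeptide transporter, had 116, 74.9 and 127 CPM in HH5, against a median of 40.7 and a highest of 115 CPM in the others (log2 1.18). The vacuolar carboxypeptidase CPS1 had 53.9, 59.9 and 47.8 CPM in HH5, all above the 17.5 to 44.5 CPM of the 24 other libraries. Outside that list, ARO9 and ARO10, which break down aromatic amino acids, were higher by 1.97 and 1.43, with colony 2 the lowest of the 3 in both. The median of the nitrogen list was 0.84, 0.39 and 0.44 in colonies 1, 2 and 3, against −0.43 to 0.58 in the others, HH28 colony 3 being the highest of these.

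Fatty acid synthesis moved through its central enzyme. FAS1, the beta subunit of fatty acid synthase (chromosome XI, 100671 to 106826, plus strand), had 347, 510 and 242 CPM in HH5, against a lowest of 86.7, a median of 173 and a highest of 245 CPM in the others. HH5 exceeded the others by 1.16 ± 0.21 on the log2 scale (SE, edgeR adjusted p = 0.00172). FAS2, the alpha subunit (chromosome XVI, 108652 to 114315, plus strand), had 506, 834 and 353 CPM in HH5, against a lowest of 136, a median of 208 and a highest of 535 CPM in the others, the highest being HH4 colony 3. HH5 exceeded the others by 1.22 ± 0.28 on the log2 scale (SE, edgeR adjusted p = 0.0143).

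With FAA3, an acyl-CoA synthetase, these were the 3 members called of 14, all higher, beside 4.27% called higher over all genes. Neither subunit passed the test against the ancestor, where FAS1 had 130, 276 and 210 CPM (edgeR adjusted p = 0.174) and FAS2 had 167, 376 and 310 CPM (edgeR adjusted p = 0.231). FAS1 was among 9 of 112 named genes called under each setting tried other than the line as the unit and the added 2-fold rule. The others were DUR12, GAT1, GLT1, LPX1, POX1, DCI1, YOR342C and FDH2, a near copy of FDH1 whose reads may be shared with it. FAS1, DUR12 and GLT1 are long genes, and their differences were smaller with a trend on gene length taken out, as given below.

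Of 12 genes of glycerol metabolism 3 were called, all higher, beside 4.27% called higher over all genes. GUT2, the mitochondrial glycerol-3-phosphate dehydrogenase, had 425, 277 and 339 CPM in HH5, against 88.1 to 343 CPM with a median of 147 in the others (log2 1.14 ± 0.24 SE, edgeR adjusted p = 0.00814). GUT1, the glycerol kinase, had 658, 540 and 497 CPM in HH5, against 143 to 549 CPM with a median of 283 in the others (log2 0.99). STL1, a glycerol transporter, was the other one, at 161, 52.5 and 93.0 CPM in HH5, against 32.8 to 87.9 CPM in the others. For this one colony 2 was at the median of the others.

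Of 41 cell wall genes, 11 were called higher and none lower, with a median log2 difference of 0.39, and here each colony took part. Over all genes tested, 4.27% were called higher. SCW11 counts both in this list and in that of daughter separation. The list's median was 0.35, 0.69 and 0.30 in HH5 colonies 1, 2 and 3, against −0.52 to 0.27 in the 24 other libraries. How often other sets of genes would lie above all 24 in this way was not tested. CRH1, which links chitin to glucan, had 345, 544 and 296 CPM in HH5, against a lowest of 117, a median of 239 and a highest of 287 CPM in the others (log2 0.81 ± 0.17 SE, edgeR adjusted p = 0.00759). It was 1 of 11 genes called with all 3 HH5 colonies beyond all 24 other libraries (0.184% of the genes tested).

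The wall genes differed in which colony led. PIR1, a wall protein bound to glucan, had 866, 166 and 974 CPM in HH5, against 53.1 to 893 CPM with a median of 87.5 in the others. CIS3, of the same family, had 196, 392.4 and 119 CPM in HH5, against 4.94 to 194 CPM with a median of 70.1 in the others. SIM1, of the SUN family, had 142, 321 and 111 CPM in HH5, against 54.2 to 138 CPM in the others. TOS1, a wall protein (chromosome II, 563203 to 564570, minus strand), was even across the colonies, with 308, 272 and 263 CPM in HH5, against 24.0 to 290 CPM with a median of 113 in the others (log2 1.39 ± 0.34 SE, edgeR adjusted p = 0.0180). Without HH5 replicate 1, 2 or 3 the list had 3, 8 and 5 genes called.

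Colony 2 of HH5 was the highest of the 27 libraries for 486 of 5342 genes with at least 10 CPM on average, against 199 and 163 in colonies 1 and 3 and a median of 82 in the other libraries (11 to 690). The 12 genes in which it exceeded the next library the most were picked for that and are given as a description. They hold genes of several roles, among them DNA replication, the cell wall and polyamine export. One is POL1, the catalytic subunit of DNA polymerase alpha (chromosome XIV, 430087 to 434493, plus strand), with 7.81, 65.0 and 8.82 CPM in HH5, against 4.26 to 17.3 CPM in the others. Colonies 1 and 3 lay at or below the median of the others, 9.11 CPM.

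TOS6, a wall protein gene, had 12.4, 97.1 and 6.86 CPM in HH5, against 1.72 to 26.8 CPM in the others. RIF1, which acts on telomeres and replication origins, had 19.4, 105 and 22.6 CPM in HH5, against 15.8 to 36.8 CPM in the others. PDS5, a cohesin regulator, had 19.6, 83.0 and 21.0 CPM in HH5, against 14.6 to 30.6 CPM in the others. The wall gene SVS1 had 60.5, 257 and 42.4 CPM in HH5, against 14.6 to 81.7 CPM in the others.

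SIM1, TPO2, HSL1, PMI40, POL2 and MRC1 were also among the 12. TPO2, a polyamine exporter, had 28.0, 1483 and 28.0 CPM in HH5, against 28.4 to 543 CPM in the others, so that colonies 1 and 3 were below all the other libraries and colony 2 above them. HSL1, a kinase of the morphogenesis checkpoint, had 34.1, 176 and 34.5 CPM in HH5, against 26.2 to 69.7 CPM in the others. For POL2, the catalytic subunit of polymerase epsilon, the value of colony 2 was 202 CPM in HH5, against a highest of 99.1 CPM in the others. Without colony 2 the fitted log2 differences of POL1, RIF1, PDS5 and HSL1 were −0.22, −0.14, −0.0022 and −0.16, and none passed.

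Several of these are long genes, and transcript length moved with this library. Over genes of 3000 bases and more, the median log2 difference from the mean of the 24 other libraries was 0.14, 0.61 and 0.15 in HH5 colonies 1, 2 and 3, against −0.39 to 0.46 in the others. Over genes of 600 to under 1500 bases it was −0.02, −0.09 and −0.06, against −0.10 to 0.11. The median length was 1778 bases for the genes called higher and 978 for those called lower, against 1229 for all genes tested with a position. With a trend on length taken out of each library, 236 genes were called higher and 50 lower. Of the 112 named genes called, 86 were still called under that setting and 26 were not. POL1, RIF1, PDS5, HSL1, FAS2, TCB3, IML1, BUD4, SWI4 and GDB1 are among the 26, and so are the lower genes YJR096W, PPH3, HIT1, ROX3, RRP7 and MRPL9. The difference was then 0.99 for POL1 and 0.77 for FAS2. FAS1, DUR12 and GLT1 were still called, at 0.70, 1.04 and 0.50, against 1.16, 1.46 and 0.92 in the main fit. POX1 and LPX1 changed little, at 2.27 and 1.65.

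**Figure D4:**
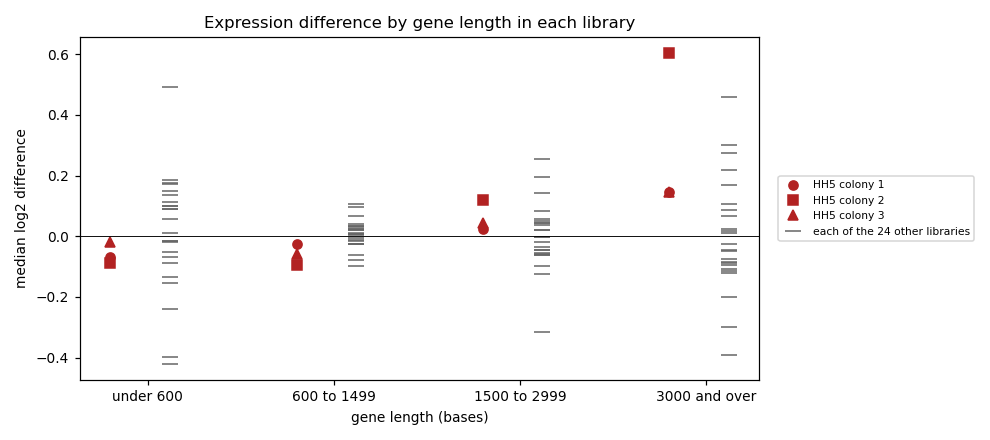
Median log2 difference from the mean of the 24 other libraries over genes in 4 classes of length, for the HH5 colonies (red) and each other library (grey ticks). HH5 colony 2 is at 0.61 for genes of 3000 bases and over, above the highest other library at 0.46, and colonies 1 and 3 are within the range.

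Genes of the division cycle gave 6 calls of 35, all higher, beside 4.27% called higher over all genes. CDC20, the activator of the anaphase-promoting complex, had 46.5, 23.9 and 48.0 CPM in HH5, against a lowest of 8.56, a median of 16.4 and a highest of 42.1 CPM in the others (log2 1.06 ± 0.21 SE, edgeR adjusted p = 0.00424). SIC1, an inhibitor of B-type cyclin kinase and a target of Swi5, had 376, 112 and 468 CPM in HH5, against 72.6 to 472 CPM with a median of 112 in the others. CLB1, a mitotic cyclin, had 18.8, 9.53 and 16.3 CPM in HH5, against 2.26 to 20.4 CPM in the others. SWI4, of the factor SBF, was higher by 0.63 and BUD4, a bud neck protein, by 0.83, colony 2 being the highest of the 3 in both.

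Of 66 genes of the general stress response 4 were called higher, FMP45, GDB1, XBP1 and CTT1, a share near the 4.27% of all genes, and with colony 2 left out 18 were called, against none with colony 1 or colony 3 left out. The median of this list was 0.57, −0.43 and 0.78 in HH5 colonies 1, 2 and 3, against −0.48 to 0.71 in the others. Colony 2 was thus below all but 2 of the 24 other libraries, and colony 3 above them all. Genes of trehalose and glycogen metabolism stood at 0.62, −0.13 and 0.81, against −0.54 to 0.65, with GDB1, the glycogen debranching enzyme, the 1 called of 23, again a share near that of all genes. Of the vacuolar proteases and autophagy genes 4 of 20 were called higher, among them PRB1, proteinase B, with 748, 573 and 561 CPM in HH5, against 108 to 764 CPM with a median of 310 in the others. PRB1 was near the threshold (edgeR adjusted p = 0.0478) and was called under 18 of 45 alternative settings.

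Some genes with all 3 HH5 colonies above the 8 line means belonged to none of these groups. The uncharacterised YER152C (chromosome V, 472657 to 473988, minus strand) had 96.6, 65.3 and 78.6 CPM in HH5, against a lowest of 7.69, a median of 14.6 and a highest of 92.4 CPM in the others. Its log2 difference was 1.88 ± 0.36 (SE, edgeR adjusted p = 0.00406). YER152C had 64.7 and 85.5 CPM in HH7 colonies 2 and 3, and 28.5, 52.9 and 92.4 CPM in the colonies of HH28. A high level was thus not particular to HH5. SNF2, the ATPase of the SWI/SNF complex, had 36.7, 82.9 and 37.65 CPM in HH5, against 7.53 to 72.3 CPM with a median of 20.7 in the others. YFR018C, also uncharacterised, had 29.25, 86.0 and 29.2 CPM in HH5, against 10.5 to 43.7 CPM in the others. YMR304C-A, not placed in the reference annotation, was higher by 1.19 at 9.62, 22.5 and 8.04 CPM in HH5, against 3.13 to 12.4 CPM in the others.

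The tricalbin TCB3, which tethers the endoplasmic reticulum to the plasma membrane, had 110, 125 and 111 CPM in HH5, all above the 55.8 to 107 CPM of the others (log2 0.68 ± 0.12 SE, edgeR adjusted p = 0.00172). PEX6, an ATPase of peroxisome biogenesis, had 69.1, 64.0 and 61.4 CPM in HH5, against 30.1 to 60.3 CPM in the others. IML1, an inhibitor of TORC1 in amino acid shortage, had 29.9, 43.5 and 30.4 CPM in HH5, against 18.3 to 29.1 CPM in the others. With PBP2, YOR342C, CPS1 and CRH1 these were the 7 genes called with all HH5 colonies above all 24 others, and GPA1, MSP1, UNG1 and YJR096W were the 4 below them. GPA1, the G protein subunit of the mating response, had 13.6, 14.9 and 16.7 CPM in HH5, against 18.2 to 54.7 CPM in the others (log2 −0.61).

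The 68 genes lower in HH5 included 4 that differed by at least 2-fold. COS12, YGL262W and YGL260W, also called lower, were not called without line HH1 or under several other settings, as given below. YNR014W, uncharacterised (chromosome XIV, 652465 to 653103, plus strand), had 30.3, 40.2 and 37.5 CPM in HH5, against a lowest of 37.2, a median of 77.2 and a highest of 127 CPM in the others. Its log2 difference was −1.13 ± 0.28 (SE, edgeR adjusted p = 0.0203), and −1.75 from the ancestor (edgeR adjusted p = 0.0105), where it had 85.6, 127 and 149 CPM. PDE2, the high-affinity cyclic AMP phosphodiesterase (chromosome XV, 1013241 to 1014821, minus strand), had 50.5, 52.9 and 46.9 CPM in HH5, against a lowest of 49.1, a median of 90.8 and a highest of 166 CPM in the others.

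PDE2 fell by 0.96 ± 0.23 on the log2 scale (SE, edgeR adjusted p = 0.0148). In the ancestor it had 111, 60.9 and 49.7 CPM, and the difference from it was not called (log2 −0.57, edgeR adjusted p = 0.328). PPH3, the catalytic subunit of protein phosphatase 4, had 26.4, 17.8 and 22.9 CPM in HH5, against 16.3 to 59.8 CPM with a median of 36.3 in the others (log2 −0.74). YJR096W, an aldo-keto reductase, had 314, 339 and 348 CPM in HH5, against 352 to 1168 CPM in the others (log2 −0.75, edgeR adjusted p = 0.0486). ROX3, a subunit of the Mediator complex, had 86.1, 99.2 and 86.1 CPM in HH5, against 93.6 to 242 CPM in the others (log2 −0.70).

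Other lower genes act on RNA. RRP4, a subunit of the RNA exosome, had 58.5, 64.0 and 47.8 CPM in HH5, against 63.1 to 116 CPM with a median of 90.3 in the others (log2 −0.66 ± 0.13 SE, edgeR adjusted p = 0.00488). UTP11, of the small-subunit processome, had 20.8, 21.8 and 13.3 CPM in HH5, against 19.5 to 48.3 CPM in the others (log2 −0.87). PUS6, a pseudouridine synthase of transfer RNA, had 9.42, 16.2 and 9.22 CPM in HH5, against 11.3 to 29.7 CPM in the others (log2 −0.87). HIT1, of box C/D snoRNP assembly, was at 14.8, 14.6 and 13.9 CPM in HH5, against 9.20 to 31.4 CPM in the others. The rule also named ECM7, MFM1 and YLR225C, with log2 differences of −0.70, −0.66 and −0.66.

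Among 122 genes of ribosome biogenesis, 2 were called, NOP53 (log2 −0.63) and RRP7 (log2 −0.42), both lower, a share near the 1.13% of all genes, and 110 had a negative difference (median −0.28). The list's median by library was −0.29, 0.04 and −0.66 in HH5 colonies 1, 2 and 3, against −0.61 to 0.71 in the others, so colonies 1 and 2 lay within that range and colony 3 just below it. Among 71 genes of mitochondrial ribosomal proteins, 2 were called, MRPL1 (log2 −0.54) and MRPL9 (log2 −0.59), both lower, beside the 1.13% of all genes. That list stood at −0.40, −0.11 and −0.31, against −0.61 to 0.21. None of 135 cytosolic ribosomal protein genes was called.

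The call of HMRA1 rested on line HH1. HMRA1, a silent-locus copy of the a1 mating-type gene, was called higher in HH5 (log2 1.67), but it had 152, 125 and 207 CPM in HH5, against a median of 156 CPM in the others. All 3 colonies of HH1 were at 0, and without line HH1 the difference was 0.07 and did not pass. COS12, a subtelomeric gene of the left end of chromosome VII, had 0.20, 0.14 and 0.59 CPM in HH5, against 0.17 to 36.4 CPM with a median of 1.78 in the others, and HH1 held the highest value. Without line HH1 COS12 was not called (log2 −2.48). YGL262W and YGL260W, also called lower, were not called without that line either (log2 −2.30 and −1.14). COS12, YGL262W and YGL260W kept a negative difference there, and were not called under 13, 19 and 16 of 45 alternative settings. Their calls were thus unstable in general and did not depend on HH1 alone.

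The remaining lists gave few calls or none. Of 56 lists, 55 had a member tested, 5 had 10 or more members called higher, 27 had 1 to 6 calls and 23 had none. Those with no call include heat shock chaperones (34 genes), methionine and sulfate assimilation (40), purine synthesis (25), zinc genes (14), thiamine synthesis (21), meiosis and sporulation (42) and transfer RNA synthetases (20). The calls of the next lists were all higher, beside 4.27% called higher over all genes. Of 21 amino acid permeases 3 were called, GAP1, PUT4 and DAL5. Of 29 genes of multidrug resistance 3 were called, AZR1, PDR11 and PDH1, the last a dehydratase of propionate use and no transporter. PDR11 was near the threshold (edgeR adjusted p = 0.0465) and was called under 18 of 45 alternative settings. With the length trend taken out its log2 difference was 0.11 and it was not called.

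The euploid label was read against chromosome medians. Over the 16 chromosomes, the median log2 difference of a HH5 library from the mean of the 24 other libraries, centred within the library, lay between −0.07 and 0.17, apart from chromosome V of colony 1. The other libraries spanned −0.11 to 0.13. Chromosome V stood at 0.22, 0.04 and 0.01 in colonies 1, 2 and 3 over 248 genes, against −0.06 to 0.05 in the others. In colony 1, 173 of the 248 genes were above 0, and each of 8 parts of the chromosome of 31 genes was above 0, at 0.10 to 0.28. Colony 1 exceeded all 24 other libraries in 5 of the 8 parts and lay within their range in 3. 1 extra copy in every cell of a diploid would give 0.585 if levels followed copies, and chromosome V of colony 1 lay below that. A gain in part of the cells was not tested. Colony 2 lay outside the range of the other libraries on 4 chromosomes by small amounts. Chromosome I stood at 0.17 in colony 2, against a highest of 0.13 in the others, and XII at 0.07, against a highest of 0.03. Chromosome IV stood at −0.071 in colony 2, against a lowest of −0.039 in the others, and VII at −0.049, against a lowest of −0.043. No run of 5 neighbouring genes called in 1 direction was found, the longest being 3 genes, on chromosomes V and VII.

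**Figure D5:**
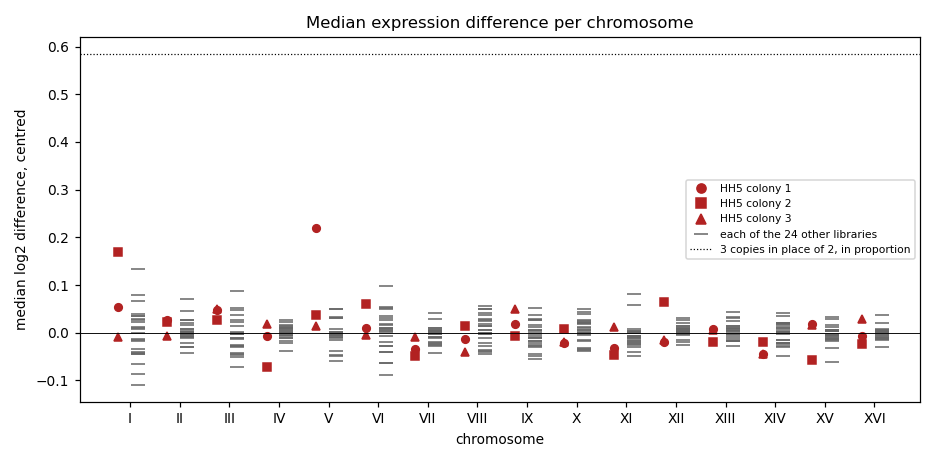
Median log2 difference of the genes of each chromosome from the mean of the 24 other libraries, centred within each library, for the HH5 colonies (red) and each other library (grey ticks). Chromosome V of HH5 colony 1 is at 0.22, outside the spread of the others and below the dotted line for 3 copies.

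Against the ancestor, 133 of 6008 genes were called in HH5 (2.21%), 100 higher (1.66%) and 33 lower (0.549%), and 94 of them also differed at least 2-fold (1.56%). That count rests on few libraries: it was 1 without ancestor replicate 3 and 4 without HH5 replicate 1. The 2 comparisons share the HH5 libraries, so their values are only set side by side. In the lists, 11 of 15 genes of daughter separation, 11 of 21 of glucose-repressed carbon metabolism, 9 of 23 of peroxisomal oxidation and 7 of 27 of nitrogen catabolite repression were higher than in the ancestor, and none was lower. YJR096W, ECM7 and RAD7 were also lower than in the ancestor (log2 −1.06, −1.003 and −0.55). For FAS1, GUT1, GUT2, PRB1 and SNF2 the difference from the ancestor was not called, and ancestor colonies 2 and 3 were higher than colony 1 in each.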

How the data were processed

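Per the labels' protocols, RNA of each colony was made into stranded libraries and sequenced as single ends of 75 bases. Gene counts are the authors' deposited whole numbers, 1 file a library. The submitters' processing notes list HTSeq 0.6.1pl, TopHat2 2.1.1 and Trim Galore 0.4.4, and the build sacCer3. The authors' deposited FPKM table, for which the notes name Cufflinks and Cuffnorm 2.2.1, was used for 1 alternative. The count libraries of HH1 replicates 1 and 3 and of ancestor replicates 2 and 3 matched each other's FPKM columns best, and the other 26 of 30 their own. No source used here gives how strand was handled in counting, so overlapping genes are uncertain, and 18.6% to 19.1% of HH5 reads and 15.9% to 30.1% of those of the other lines were not unique and left out of library sizes and tests. Groups were taken from the titles. The descriptions of HH2 replicates 2 and 3 name other lines, and HH2 was left out in 1 alternative.

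Counts were fitted with edgeR 4.0.16 in R 4.3.3 (TMM, filterByExpr, robust quasi-likelihood) with 1 coefficient per line, and HH5 was set against the mean of the 8 others (27 libraries) or against the ancestor (30 libraries), with Benjamini-Hochberg adjustment over all genes. The fit was tested on simulated data. No 2 colonies of 1 line were near-copies of each other (lowest chi-square per degree of freedom 7.04). Of 7126 features, 6079 matched the R64 annotation, which gave positions. CPM values are TMM-scaled, and log2 values of single libraries use CPM + 0.5. Genes were named where they were called, had at least 10 CPM and all 3 HH5 colonies on 1 side of the 8 line means in CPM (the 12 largest differences each way), and up to 5 called members with the smallest p per list; the strain's marker genes were added. The 12 genes of colony 2, the 11 beyond all 24 libraries, FDH2, YGL262W and YGL260W were chosen after their values were seen. The members and lists were chosen with earlier results of these data known. Some genes are not reported here.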

Additional observations from a re-analysis of the deposited data

How the results depend on the processing

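The 324 calls between HH5 and the 8 other lines were 506 with DESeq2 1.42.0, 160 with limma-voom (limma 3.58.1) and 108 with a 2-fold minimum added. They were 349 with RLE factors, 315 without a filter, 341 with matched features only and 392 with the replicate block. The next alternatives were chosen after seeing the data: limma on log2(FPKM + 1) of the authors' table gave 163, and taking out a length trend gave 286. Without a whole line the count was 506 (HH1), 182 (HH2), 150 (HH3), 513 (HH4), 495 (HH7), 228 (HH8), 242 (HH11) or 408 (HH28), and with the line as the unit it was 0, the smallest adjusted p being 0.103 for POL1. Leaving out 1 library gave 64 to 591. It was 64 without HH5 replicate 1, 433 without replicate 2 and 176 without replicate 3, and 541, 591 and 491 without HH1 replicate 3, HH4 replicate 3 and HH7 replicate 3. The 133 calls against the ancestor were 282 with DESeq2, 78 with limma-voom and 126 with the replicate block, and 1 to 368 without 1 library, with 4, 368 and 55 without HH5 replicates 1, 2 and 3, 245 without HH4 replicate 3, 221 without HH7 replicate 1, and 24, 39 and 1 without ancestor replicates 1, 2 and 3. The causes were not tested. Replicate numbers were treated as names of colonies. Same-numbered colonies of different lines had a mean correlation of deviations of 0.02 over 108 pairs, and other-numbered ones −0.01 over 216 pairs. Of these, 33 and 70 pairs were over 0.1, and 9 of 27 libraries correlated best with their own number. In the deviations from the mean of 27 libraries, HH5 colony 3 had r = 0.90 with HH7 colony 3 and 0.81 with HH28 colony 3. Both are same-numbered pairs. HH5 colony 1, of another number, had 0.79 with HH7 colony 3. The highest same-number value in this check was 0.68, so the check used another measure of deviation. Its values cannot be set beside those. Whether a replicate number marks a shared batch was not tested. Under 1 setting, without HH5 replicate 2, the fitted differences of POL1 (−0.22), RIF1 (−0.14), PDS5 (−0.0022) and HSL1 (−0.16) turned negative, the highest values with 1 library left out being 1.93, 1.45, 1.36 and 1.47, and no other named gene changed sign. Of 15 genes of daughter separation 12 were called, against 2 with limma-voom and 1 on FPKM.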
